A study of Mus musculus with 16 samples.

Results

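The 8 genes described here are Lin28a, Lin28b, Hmga1, Hmga2, Igf2bp1, Igf2bp2, Igf2bp3 and Trim71, named heterochronic because they or their relatives set the timing of developmental steps. They were taken by symbol from tables of 48709 genes, and all 8 were found. All peak intervals within 50 kb of their gene spans were taken with them, which gave 362 of 335380 merged ATAC regions, 218 of 267936 H3K27ac regions and 122 of 74967 Tead regions. A merged region joins the overlapping peaks of all libraries of an assay.

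The study, whose title concerns Yap/Tead and progenitor self-renewal in the organ of Corti, profiled mouse cochlear progenitors purified by FACS. Cells of E12.0 were positive for Sox2-GFP and cells of E13.5 were positive for p27-GFP, so age and sorting reporter changed together and cannot be told apart in any stage difference below. RNA was sequenced in 2 libraries per stage, open chromatin by ATAC in 3 per stage, and H3K27ac, a histone mark of active promoters and enhancers, by CUT&RUN in 2 per stage. Tead binding was profiled by CUT&RUN with a pan-Tead antibody in 2 libraries at E12.0 only. The labels name no further allele or treatment, and do not state which litters the replicates are from and how many animals were pooled, so p-values measure only the spread between these libraries.

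LIN28 proteins bind the precursors of the let-7 microRNAs and hold back their maturation, and let-7 in turn represses the messages of Lin28b, Hmga2, Igf2bp1 and Trim71 among many others. HMGA proteins are chromatin architectural factors that bind AT-rich DNA, IGF2BP proteins bind messages and affect their stability and translation, and TRIM71 (LIN41) is an RNA-binding ubiquitin ligase. In the cochlea LIN28B and let-7 are known for their part in the timing of progenitor cell cycle exit and hair cell differentiation.

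The let-7 microRNAs share a seed, and matches to it in the messages of the 8 genes were not searched. RefSeq (GRCm38.p6) lists 12 let-7 family hairpins, Mir98 included, with 11 entries of the 5p arm that carry 9 different sequences and 1 shared seed, GAGGUAG at bases 2 to 8. Mature let-7a from chromosome 13 (48538239-48538260, minus strand) and let-7g from chromosome 9 (106178846-106178867, plus strand) are shown with that seed in capitals. The hairpins of let-7g and let-7b (chromosome 15, 85707319-85707403, plus strand) are shown because they differ in GGAG, the letters that the zinc knuckles of LIN28 recognise, given in capitals where they lie between the mature arms.
let-7a-5p: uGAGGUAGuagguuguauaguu
let-7g-5p: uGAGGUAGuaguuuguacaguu
let-7g hairpin: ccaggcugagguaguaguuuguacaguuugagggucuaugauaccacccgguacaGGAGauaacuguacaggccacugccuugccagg
let-7b hairpin: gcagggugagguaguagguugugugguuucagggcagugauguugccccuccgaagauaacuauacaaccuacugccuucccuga
GGAG occurred in 9 of the 12 hairpins. It lay between the arms in 8 of the 11 hairpins for which both arms were listed, and the let-7b hairpin held none. The poly(A) libraries did not measure mature let-7.

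At E13.5 the RNA of Igf2bp1, Hmga2, Trim71, Igf2bp3, Hmga1 and Lin28a was lower than at E12.0, that of Lin28b was higher, and Igf2bp2 did not pass the test. Thus 6 of the 8 genes fell and 1 rose (edgeR quasi-likelihood test, adjusted p threshold 0.05), beside a background of 45.9% of 15982 tested genes called in either direction, 22.4% higher and 23.5% lower. Differences were given relative to TMM scaling, under which the median of all tested genes lay at a log2 fold change of 0.05. With library totals alone that median was 0.62, and on log2(TPM + 1) it was 0.76. Levels are CPM, counts per 1e+06 TMM-scaled counts, unless TPM, which also divides by effective length, is named. In bulk samples, fewer cells of a type and less RNA per cell cannot be told apart.

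**Figure D1:**
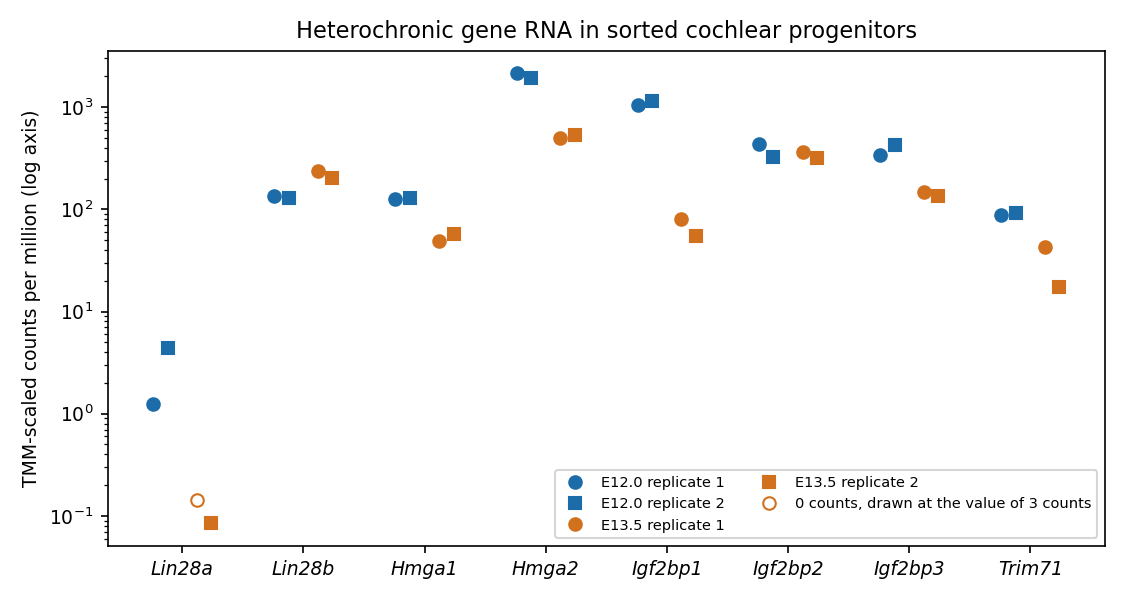
TMM-scaled CPM of the 8 genes in each RNA library, on a log axis, with 2 libraries per stage (circles for replicate 1, squares for replicate 2) and 1 open circle for a library with 0 counts, drawn at the value of 3 counts. The E12.0 and E13.5 points do not overlap for any gene except Igf2bp2.

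Of the let-7 regulators, Lin28b (chromosome 10, 45376617-45486314) carried nearly all of the Lin28 RNA. It was at 135 and 128 CPM in the E12.0 libraries and at 236 and 202 in the E13.5 libraries, so both E13.5 libraries lay above both E12.0 libraries. The log2 fold change was 0.73 ± 0.24 (SE, edgeR adjusted p = 0.0278). The call was lost without E12.0 replicate 1, E12.0 replicate 2 or E13.5 replicate 1 (edgeR adjusted p = 0.112, 0.133 and 0.131), with log2 fold changes of 0.62 to 0.84 over the 4 libraries left out in turn. On the TPM scale Lin28b had 28.4 and 34.1 at E12.0 versus 100 and 84 at E13.5, and at E13.5 it stood above 86.9% and 83.5% of tested genes.

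Lin28a (chromosome 4, 134003330-134019196), the relative best known from pluripotent cells, was close to the limit of these libraries. Its counts were 9 and 37 at E12.0 versus 0 and 2 at E13.5, or 1.24, 4.36, 0 and 0.0848 CPM. The E12.0 libraries held 65.1 times the E13.5 level (95% exact interval 17 to 553, counting error only), and 3 counts in the library with none would be 0.143 CPM. The edgeR adjusted p was 0.00469, and without E12.0 replicate 2 the gene fell below the count filter and was not tested. Lin28b made up 98.6%, 95%, 100% and 99.9% of the summed Lin28 TPM in the 4 libraries.

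Hmga2 (chromosome 10, 120361268-120476469) was the most abundant of the 8 genes per length, with 665 and 748 TPM at E12.0 versus 318 and 333 at E13.5. In CPM it was at 2150 and 1910 at E12.0 and at 504 and 540 at E13.5, with no overlap. Its log2 fold change was -1.96 ± 0.26 (SE, edgeR adjusted p = 0.000229). Even at the lower stage it stood above 97.4% and 97.3% of tested genes in TPM. The transcripts 1700006J14Rik and 9230105E05Rik, with 16 to 280 counts per library, overlap its span, and no source used here states whether counting used strand.

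Hmga1 (chromosome 17, 27556574-27563672), the other member of the family, was at 125 and 129 CPM at E12.0 and at 49.3 and 57.8 at E13.5. The log2 fold change was -1.25 ± 0.25 (SE, edgeR adjusted p = 0.00232). Hmga1 has a near-identical copy in the table, Hmga1b, at 162 and 98.6 CPM at E12.0 versus 45.5 and 98.5 at E13.5, and the counting could split reads between them, so the value of Hmga1 alone is uncertain. Hmga1b did not pass the test (edgeR adjusted p = 0.0841). Summed over both copies the level was 288 and 228 CPM at E12.0 versus 94.8 and 156 at E13.5, again without overlap. Hmga2 held 87.5% and 85.7% of the summed TPM of Hmga1 and Hmga2 at E12.0 versus 79.9% and 76.8% at E13.5. Hmga1b was left out of that sum, and with it these shares would be lower. They also rest on the uncertain value of Hmga1.

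Among the message-binding proteins, Igf2bp1 (chromosome 11, 95957163-96005944) had the largest fitted decrease after that of Lin28a. It was at 1050 and 1150 CPM at E12.0 and at 80.8 and 54.5 at E13.5, 16.2-fold lower in the mean, with a fitted log2 difference of -4.02 ± 0.30 (SE, edgeR adjusted p = 1.2e-05). The deposited length, an average over the transcripts assigned to the gene, was 8294 and 7486 bases for E12.0 versus 5686 and 6308 at E13.5. That is a log2 ratio of -0.40, and 9.13% of 6420 genes with several transcripts and at least 100 counts had a lower one.

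Igf2bp3 (chromosome 6, 49085218-49215469) was at 339 and 423 CPM at E12.0 and at 149 and 134 at E13.5. The stages did not overlap, and the log2 fold change was -1.43 ± 0.25 (SE, edgeR adjusted p = 0.00113). Malsu1, with 330 to 782 counts per library beside 2462 to 3590 for Igf2bp3, overlaps the Igf2bp3 span. Whether counting used strand is not stated, as for Hmga2. Igf2bp2 (chromosome 16, 22059009-22163299) was at 432 and 327 CPM at E12.0 and at 366 and 316 at E13.5. These ranges overlapped, and the log2 fold change was -0.15 ± 0.25 (SE, edgeR adjusted p = 0.643).

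Per length, Igf2bp2 led the Igf2bp family in both E13.5 libraries, while at E12.0 Igf2bp2 led in replicate 1 and Igf2bp1 in replicate 2. Igf2bp1 supplied 35.7% and 42% of the family's TPM at E12.0 versus 7.73% and 5.69% at E13.5. Igf2bp2 supplied 37.9% and 28.1% at E12.0 versus 68% and 69% at E13.5. The share of Igf2bp3 was 26.4% and 29.9% at E12.0 versus 24.3% and 25.3% at E13.5. The family sum was 399 and 519 TPM at E12.0 versus 422 and 340 at E13.5, so the sums overlapped between stages. These shares compare genes within a library and do not depend on scaling between libraries. They are given as a description, with no test.

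**Figure D2:**
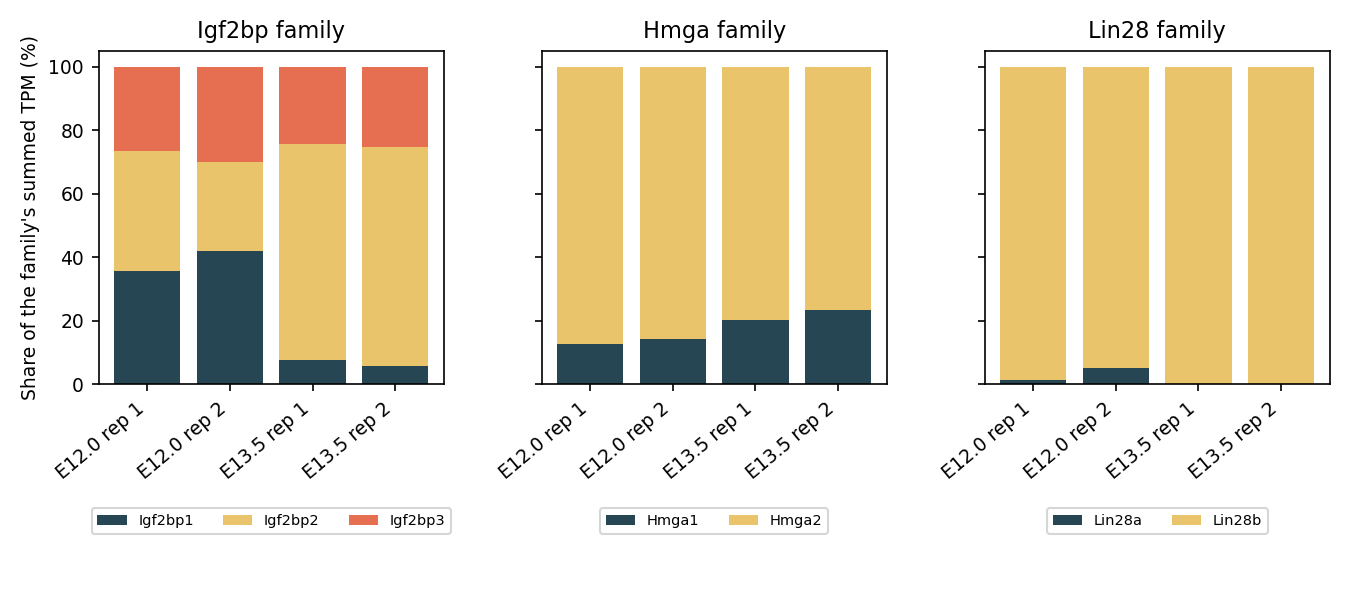
Stacked bars of each gene's share (percent) of its family's summed TPM in the 4 RNA libraries, for the Igf2bp, Hmga and Lin28 families. The Hmga sum is of Hmga1 and Hmga2, without Hmga1b. Igf2bp1 takes 35.7% and 42% in the E12.0 libraries but 7.73% and 5.69% in the E13.5 libraries.

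Trim71 (chromosome 9, 114511268-114564369) was the lowest of the genes apart from Lin28a, at 10.7 and 14.2 TPM at E12.0 versus 10.5 and 4.14 at E13.5. In CPM it was at 89 and 93.1 at E12.0 and at 43.2 and 17.5 at E13.5, with the E13.5 libraries apart from each other but below both E12.0 libraries. The log2 fold change was -1.59 ± 0.39 (SE, edgeR adjusted p = 0.00723). It was -2.38 without E13.5 replicate 1 and -1.08 without E13.5 replicate 2.

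The calls depended on scaling. On log2(TPM + 1) with limma, Hmga2 (-1.11) and Igf2bp1 (-2.76) stayed lower and Lin28b (1.53) stayed higher, and Igf2bp2 was called higher (0.80, limma adjusted p = 0.0206). The calls of Hmga1, Igf2bp3, Trim71 and Lin28a were lost there, at -0.27, -0.44, -0.79 and -0.95 (limma adjusted p = 0.421, 0.21, 0.194 and 0.0558). With library totals alone Trim71 lost its call (edgeR adjusted p = 0.0595). Measured from the median of all genes, Lin28b lay at 0.68, 0.68 and 0.77 under TMM, library totals and log2(TPM + 1). Hmga2 lay at -2.01, -2.00 and -1.87 on the same 3 scales, Igf2bp1 at -4.07, -4.07 and -3.52, and Igf2bp2 at -0.20, -0.19 and 0.04.

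**Figure D3:**
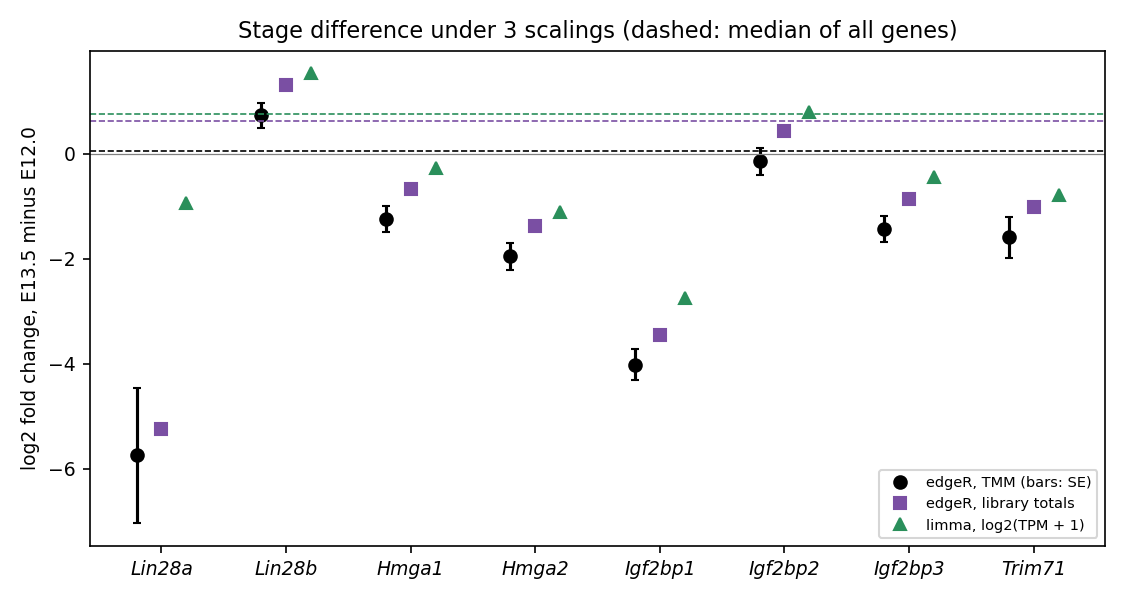
Log2 fold change, E13.5 minus E12.0, of each gene under edgeR with TMM (circles, bars are SE), edgeR with library totals (squares) and limma on log2(TPM + 1) (triangles), with dashed lines at the median of all genes on each scale. Igf2bp2 lies below 0 under TMM and above 0 on the other scales, while Hmga2 and Igf2bp1 lie below 0 and Lin28b above 0 on all 3.

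Libraries of the 2 stages also differed in other ways. The totals were 9412326 and 9810603 counts at E12.0 versus 17057751 and 19570946 at E13.5, and the mitochondrial ribosomal RNA mt-Rnr2 took 17% and 13.2% of counts at E12.0 versus 0.295% and 0.18% at E13.5. Sox2 rose (log2 fold change 2.07 ± 0.25, SE, edgeR adjusted p = 0.000132), as did the p27 gene Cdkn1b (4.65 ± 0.30, edgeR adjusted p = 6.09e-06), for whose reporter only the E13.5 cells were sorted. Of 12 cochlear epithelium markers 5 were higher and 3 lower, beside 22.4% and 23.5% of all genes, shares that apply to each marker list here. Their summed TPM was 1360 and 1710 at E12.0 versus 3990 and 4190 at E13.5. This list includes Sox2 and Cdkn1b, the genes of the sorting reporters, so it is not independent of how the cells were chosen. On log2(TPM + 1) the median of all genes was itself 0.76. Mesenchyme markers summed to 830 and 924 TPM at E12.0 versus 580 and 704 at E13.5, with 6 of 10 tested, 2 lower (Lum and Postn) and Twist1, Prrx1, Pou3f4 and Tbx18 at or near 0. Glial and neural crest markers summed to 361 and 536 against 356 and 362 TPM, with 2 of 4 tested genes higher and 1 lower. Neuronal markers summed to 19.7 and 32 against 31.2 and 25.6 TPM, blood and endothelial markers to 17 and 3.79 against 8.72 and 2.9, and melanocyte markers to 0.153 and 0.0828 against 2.9 and 28.9. Of these, 2 of 7 tested neuronal genes were lower, the 1 tested melanocyte gene (Dct) was higher, and the 1 tested blood or endothelial gene was not called. The part of these differences in the results of the 8 genes was not tested.

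Genes around the let-7 pathway were followed through lists. Of 21 genes of microRNA processing and silencing, all tested, 9 fell and 2 rose, with a median log2 fold change of -0.60 beside 0.05 over all genes, of which 23.5% fell and 22.4% rose. The helicase Ddx17 changed by -4.09 ± 0.29 (SE), the argonautes Ago1 and Ago2 by -3.51 ± 0.26 and -2.10 ± 0.30, and Dicer1, which cuts the let-7 hairpin, by -2.56 ± 0.25. The rises were in Khsrp, which binds let-7 precursors and favours their maturation (2.56 ± 0.28), and in Tut7, a uridylyl transferase that acts on LIN28-bound precursors (1.87). Tut7 was singled out after its value was seen. On log2(TPM + 1) 6 fell and 6 rose by limma, with a median of -0.09, beside 13.1% of all genes lower, 42.7% higher and a median of 0.76. Measured from the median of all genes, the list lay at -0.65 under TMM and at -0.85 on log2(TPM + 1).

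Of 30 genes described as let-7 targets, 28 were tested, 13 fell and 2 rose, with a median of -1.10, beside 23.5% and 22.4% of all genes and their median of 0.05. The kinase genes Aurkb and Cdk6 changed by -3.40 ± 0.31 and -2.70 ± 0.34, the ribonucleotide reductase subunit Rrm2 by -2.50 ± 0.28 and the transcription factor Bach1 by -2.61 ± 0.35. Aurkb, Cdk6 and Rrm2 act in the cell cycle. The risers were Arid3b (1.08) and Fzd3 (0.76), singled out after their values were seen. On log2(TPM + 1) 7 fell and 10 rose by limma, beside 13.1% and 42.7% of all genes, and the median was 0.09. From the median of all genes that is -0.67, against -1.15 under TMM. Of 9 let-7 host transcripts 4 were found and 2 tested. Mir99ahg, listed as host of let-7c-1 although that hairpin starts at 77599657, beyond the span of the gene here (77329328-77558428), was at 34 and 16.8 CPM at E12.0 versus 117 and 59.3 at E13.5, a log2 difference of 1.80 ± 0.41 (SE, edgeR adjusted p = 0.0052). Huwe1, whose span holds the hairpins of let-7f-2 and Mir98 and which was singled out after its value was seen, was at 269 and 436 CPM in the E12.0 libraries and at 252 and 211 in the E13.5 libraries. It was not called (-0.61 ± 0.28, edgeR adjusted p = 0.103).

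The IGF axis, named for the message that gave the IGF2BP proteins their name, had 12 tested genes, of which 5 fell and 0 rose, beside 23.5% and 22.4% of all genes. Its median was -0.47, beside 0.05 over all genes. Igf2 was at 399 and 343 CPM at E12.0 versus 40.6 and 56.1 at E13.5 (-2.94 ± 0.27, SE, edgeR adjusted p = 3.13e-05). H19, the imprinted RNA next to it, was at 387 and 204 CPM at E12.0 versus 53.8 and 64.2 at E13.5 (-2.33 ± 0.33). The receptor Igf1r changed by -1.61 ± 0.30 and the binding proteins Igfbp4 and Igfbp5 by -1.62 ± 0.31 and -0.97 ± 0.25. The calls of Igf1r, Igfbp4 and Igfbp5 were lost on log2(TPM + 1) (limma adjusted p = 0.123, 0.525 and 0.399), and there 2 fell and 3 rose, beside 13.1% and 42.7% of all genes, with a median of 0.17. From the median of all genes the list lay at -0.59 there and at -0.52 under TMM.

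Of 15 genes of message-bound protein complexes, 6 fell and 4 rose, with a median of -0.40, beside 23.5% and 22.4% of all genes and their median of 0.05. Ybx1, a cold-shock protein found with IGF2BP1, changed by -4.99 ± 0.30 (SE) and the poly(A)-binding gene Pabpc1 by -3.55 ± 0.27. Cnbp, Ythdf2 and Caprin1 changed by -1.70 ± 0.26, -1.15 ± 0.24 and -1.10 ± 0.26. Ybx1, Pabpc1 and Cnbp have processed copies in the genome, so their counts are uncertain. On log2(TPM + 1) 3 fell and 7 rose by limma, beside 13.1% and 42.7% of all genes, and the median of this list was 0.78. From the median of all genes the list lay at 0.02 there and at -0.45 under TMM. Caprin1 had a value of 0.07 on log2(TPM + 1), which is -0.69 from that median, against -1.15 under TMM.

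The protein-coding genes nearest to 3 of the members were ranked by distance between centred log2 CPM over the 4 RNA libraries. For Lin28b they were Zfp865 (distance 0.018), B230307C23Rik (0.0314) and Gstz1 (0.0381). For Hmga2 they were Cks1brt (0.0264), Cggbp1 (0.0637) and Naca (0.0775), and for Igf2bp1 Midn (0.0781), Rab35 (0.18) and Ctdsp1 (0.189). Cks1brt was at 1.79 and 1.53 CPM at E12.0 and at 0.0476 and 0.0848 at E13.5, and B230307C23Rik at 0.55 and 0.471 CPM at E12.0 and at 1.33 and 1.06 at E13.5, so both patterns rest on few reads and on the added 0.5 CPM. The distances are a description over 4 libraries that share a stage split.

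Chromatin was read as presence of the authors' peaks, called per library. Near the 8 genes 0 of 362 ATAC regions were held at E12.0 alone, by each of its libraries (0.054% of all regions). The opposite pattern had 19 regions (5.25%, background 6.6%), and 44 were held by all 6 libraries (12.2%, background 10.1%). These shares were near the background. Peak numbers per library were 112621 to 143817 at E12.0 and 208061 to 226496 at E13.5. Peak number thus moved with the E13.5 count, and its part was not tested. Without E12.0 replicate 2 the E13.5 count was 40 of 320 (12.5%), beside 11.8% of all regions.

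Promoter windows ran from 250 bases before to 50 after the RefSeq start, and 7 of the 8 genes had an entry. Hmga1 had a second entry (27556354-27556653), and peaks were counted over its first (27556324-27556623). An ATAC peak lay over the window in all 6 libraries for Hmga1, Hmga2, Igf2bp2, Igf2bp3 and Trim71, 5 of 7, beside 54.4% of 17492 promoters of protein-coding genes. For Igf2bp1 a window of 250 bases on either side of the upper end of its span was used, and it held a peak in all 6, with folds (the authors' signal over background) of 2.77 to 3.91. Lin28a had a peak in 1 of 3 libraries at each stage. The window of the gene whose RNA rose, Lin28b, held no ATAC peak in the 3 E12.0 libraries and one in all 3 E13.5 libraries, with folds of 3.63, 2.46 and 2.89. That pattern was found at 0.943% of promoters, and the reverse at 0.0114%. This depends on the edge of the window: 2 of the 3 E12.0 libraries had a peak, with folds of 2.91 and 3.42, elsewhere in the merged region that overlaps it (45469552-45470359). The upper end of the Lin28b span, in a region whose midpoint lies at -16058 bases from that start, held a peak in all 6, with folds of 5.63 to 8.65 at E12.0 and 9.88 to 10.9 at E13.5.

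The Lin28b promoter is shown with that of Igf2bp3, since these were the members' promoters that held CACGTG, the E-box bound by factors of the MYC family among others, given in capitals. The Igf2bp2 promoter is shown for contrast in base composition, with CpG dinucleotides in capitals. All are RefSeq sequences of GRCm38.p6 on the minus strand, chr10:45470152-45470451, chr6:49214905-49215204 and chr16:22163250-22163549.
Lin28b promoter: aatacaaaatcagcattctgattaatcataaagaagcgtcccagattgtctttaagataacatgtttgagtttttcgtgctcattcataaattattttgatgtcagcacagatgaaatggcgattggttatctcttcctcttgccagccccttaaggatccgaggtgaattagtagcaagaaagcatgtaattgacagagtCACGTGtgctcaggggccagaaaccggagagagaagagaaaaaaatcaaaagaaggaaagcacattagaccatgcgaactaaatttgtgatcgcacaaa
Igf2bp3 promoter: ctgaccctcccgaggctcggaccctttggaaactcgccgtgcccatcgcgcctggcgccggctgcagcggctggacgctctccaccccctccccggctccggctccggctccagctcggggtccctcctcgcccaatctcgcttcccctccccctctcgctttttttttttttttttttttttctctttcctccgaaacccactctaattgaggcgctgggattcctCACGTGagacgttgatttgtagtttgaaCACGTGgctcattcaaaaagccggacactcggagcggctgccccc
Igf2bp2 promoter: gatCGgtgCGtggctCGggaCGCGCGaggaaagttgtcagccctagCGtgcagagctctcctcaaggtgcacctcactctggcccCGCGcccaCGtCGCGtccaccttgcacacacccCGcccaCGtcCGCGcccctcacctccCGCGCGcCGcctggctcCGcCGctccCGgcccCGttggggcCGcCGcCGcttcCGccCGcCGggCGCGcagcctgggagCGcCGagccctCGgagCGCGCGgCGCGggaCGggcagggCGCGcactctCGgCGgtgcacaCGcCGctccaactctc
CACGTG, the same on both strands, began at -49 in Lin28b and at -23 and 6 in Igf2bp3, counted from the start, and occurred in 7.24% of 27025 promoters of this length. The motif was picked with the sequences in view. GGAATG, the core of the Tead motif, was searched on both strands and found in 0 of the 7 promoters, beside 14.6% of all. Lin28b had the lowest GC content of the 7, 39%, and 8.88% of promoters were lower. Igf2bp2 had 76.7% and 47 CpG, against 8 CpG in Lin28b.

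**Figure D4:**
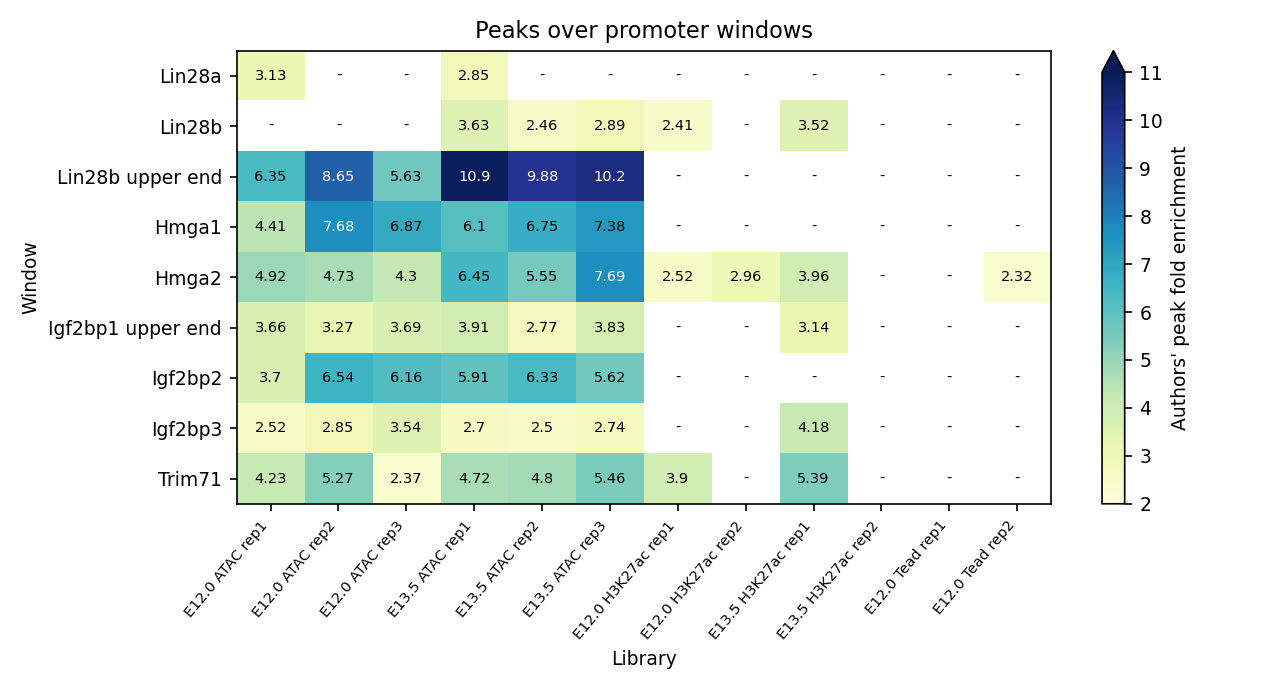
The authors' fold enrichment of the strongest peak over each window (rows) in the 12 ATAC and CUT&RUN libraries (columns), with a dash where no peak lay over the window. The Lin28b window has ATAC peaks in the 3 E13.5 libraries and in no E12.0 library.

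H3K27ac peaks lay over few of these windows, and peaks in the flanks outside a window were not counted. Hmga2 had a peak in both E12.0 libraries and in 1 of the 2 E13.5 libraries, and was the 1 of 7 held by both at E12.0 (16% of all promoters). Of the 7, 0 were held by both E13.5 libraries (7.41% of all promoters) or by all 4 (5.29%). For Igf2bp3 this depends on the edge of the window: the merged region that overlaps it (49214452-49216538) was held by both E13.5 libraries, with folds of 4.18 and 3.0, and by 1 E12.0 library. Just outside the Hmga1 window lay a region (27555619-27556273) held by replicate 1 of each stage. Just outside that of Igf2bp2 lay one (22163648-22163957) held by E12.0 replicate 1. Lin28b and Trim71 had a peak in 1 library per stage, Igf2bp3 in 1 library at E13.5, and Hmga1, Igf2bp2 and Lin28a in none. The window at the upper end of the Igf2bp1 span had a peak in E13.5 replicate 1 alone, with a fold of 3.14. The second Hmga1 entry did overlap a peak (27556636-27556835), held by E13.5 replicate 1 with a fold of 3.26. Replicates differed. Of the 218 nearby regions the E12.0 libraries held 111 and 32 (50.9% and 14.7%, beside 23.0% and 33.5% of all regions). The E13.5 libraries held 123 and 41 (56.4% and 18.8%, beside 42.1% and 27.4% of all regions). Over all regions E12.0 replicate 2 thus held more than E12.0 replicate 1, the reverse of the order near these genes. The E12.0 libraries were also made with different kits.

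Of the 218 H3K27ac regions, 2 were held by both E12.0 libraries alone (0.917%, background 0.877%), 4 by both E13.5 libraries alone (1.83%, background 1.4%) and 4 by all (1.83%, background 1.97%). Both of the E12.0 regions lay inside Lin28b, although its RNA was higher at E13.5. At 45413073-45413440 the folds were 2.24 and 2.71, and the region beside it (45411613-45413041) was also held by E13.5 replicate 1, at 3.29. At 45485046-45485347 they were 2.78 and 3.23. Of the E13.5 regions 3 lay inside Igf2bp3, whose RNA was lower at E13.5, and 1 inside Igf2bp2. Of those in Igf2bp3, 49149770-49150223 lay beside a region held by all 4 libraries (49150274-49151470). Such stage labels can thus rest on where peaks were split. The Igf2bp2 region (22080508-22081169) had folds of 3.35 and 3.85 and overlapped an ATAC region of E13.5 alone (22080272-22080642). That was the 1 such coincidence among the 19 ATAC regions, beside 1.59% of such regions over the genome. A second ATAC region of E13.5 alone, inside Lin28b at 45458689-45458918, lay within an H3K27ac region held by all 4 libraries. Thus 2 of the 19 overlapped H3K27ac regions held by both E13.5 libraries, beside 5.05% of such ATAC regions over the genome. Counts of this size moved widely with single libraries, to 72 E13.5 regions without E13.5 replicate 2 (36.7%, beside 36.2% of all regions) and to 56 E12.0 regions without E12.0 replicate 2 (27.3%, beside 14.8%).

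Tead peaks common to both libraries were found at Igf2bp1 and at none of the other 7 genes. The region (chr11:96007728-96008166, GRCm38) lay 1784 bases beyond the upper end of the gene span, with folds of 2.29 and 2.71, and overlapped an ATAC region held by all 6 libraries. Of all Tead regions held by both libraries, 57.9% overlapped an ATAC region held by every E12.0 library. The Igf2bp1 region was 1 of 122 (0.82%, background 2.12%), a share below that over all Tead regions. It was weak in replicate 1, where 6.01% of peaks had the same or a lower fold, and at −log10 q of 2 or more it was not held by both. Replicate 2 held 106 of the 122 regions (86.9%, beside 77.8% of all) and replicate 1 held 17 (13.9%, beside 24.3% of all). These libraries were made with different kits. Over the Hmga2 promoter a Tead peak lay in replicate 2 alone, with a fold of 2.32, a replicate that had a peak over 24.3% of promoters. Both Tead libraries had a peak over 0 of the 7 promoters (1.89% of all).

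**Figure D5:**
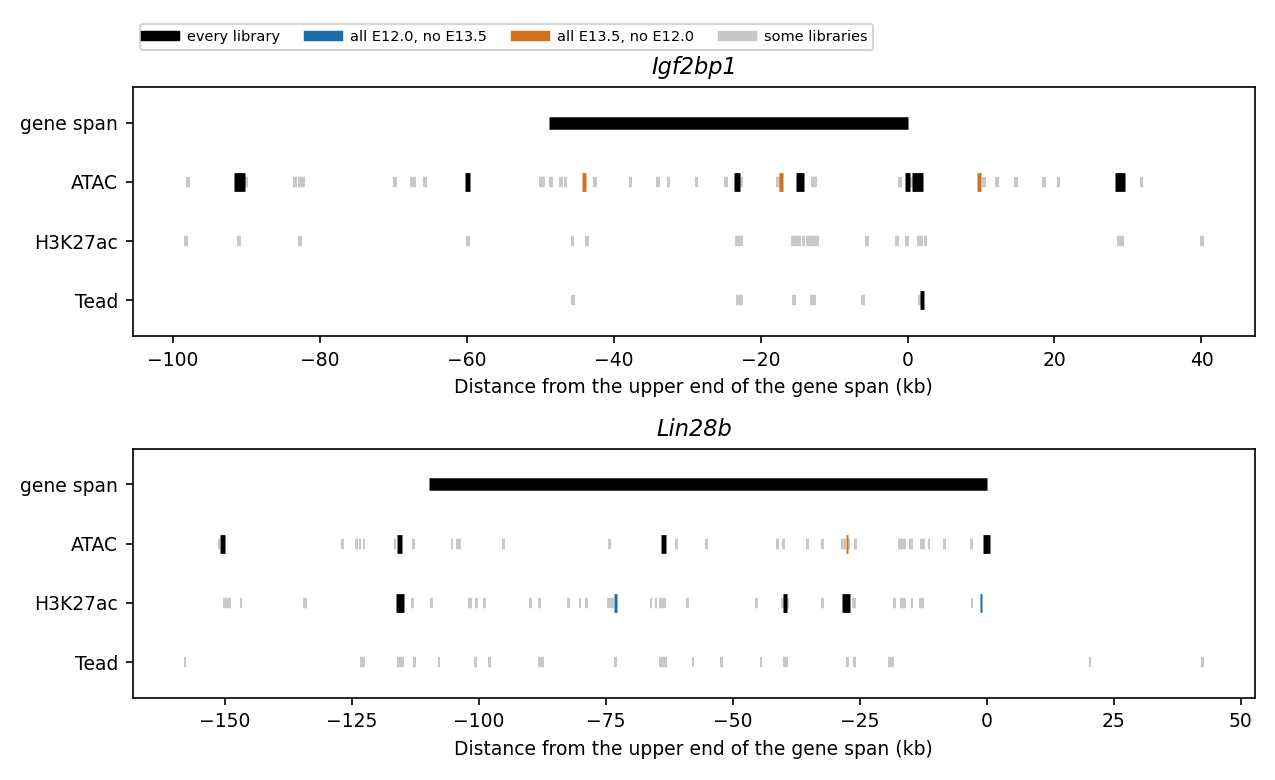
Regions within 50 kb of Igf2bp1 (top) and Lin28b (bottom) by distance from the upper end of the gene span in kb, coloured by the libraries that hold them, with regions under 0.5 kb drawn at that width. The Tead region held by both libraries lies just beyond the upper end of Igf2bp1, and both H3K27ac regions of E12.0 alone lie inside Lin28b.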

How the data were processed

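RNA tables deposited by the authors give expected counts per gene, which need not be whole, beside gene lengths, per the file headers. Their counting tool is not given in the sources used. Peaks were deposited by the authors as 1 list per library, with a fold ratio over background and −log10 p and −log10 q. MACS2, STAR and UMI-tools appear, without versions, in the submitters' processing notes, as do mm10 and GRCm38.

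Expected counts were rounded, filtered with filterByExpr (15982 of 48709 genes kept), TMM-scaled and tested with edgeR 4.0.16 in R 4.3.3 (quasi-likelihood F test, 2 against 2 libraries, Benjamini-Hochberg over all tested genes, threshold 0.05). SE was taken from the F statistic. DESeq2 1.42.0, limma 3.58.1 on log2(TPM + 1) and other scalings were alternatives. The edgeR step was tested on simulated data. A count of 10 was worth 0.424 to 1.38 CPM, and intervals cover counting error only. Replicates differed beyond sampling noise (32.7 and 50.8 as chi-square over degrees of freedom). Likeness used a pseudocount of 0.5 CPM.

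Peaks of all libraries of an assay were merged. An overlap of 1 bp with a peak put a region in a library. Spans were RefSeq GRCm38.p6, whose table gives no strand, so exons and introns were not separated. The E12.0 ATAC lists hold peaks on unplaced contigs and the E13.5 lists hold none, so the deposited lists were not filtered alike. Named genes were, per list, up to 5 called genes of smallest adjusted p that kept their direction without any 1 library, and the 3 most alike genes for Lin28b, Hmga2 and Igf2bp1. A gene that this rule names is not reported here. The members and lists were chosen with earlier results of these data known.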

Additional observations from a re-analysis of the deposited data

How the results depend on the processing

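Hmga2 and Igf2bp1 kept direction and call under every alternative run, among them DESeq2, RLE factors, library totals, no count filter, no mitochondrial genes, log2(TPM + 1) and each library left out. Of the alternative values for single members, 76 of 87 kept direction and call, 8 lost the call and 3 reversed. The reversals were Igf2bp2, at 0.43 with library totals, 0.80 on log2(TPM + 1) and 0.04 without E12.0 replicate 1 (range -0.35 to 0.04 over libraries left out). On log2(TPM + 1) 2 members were higher and 2 lower, and 6821 genes were higher and 2101 lower. With library totals 5796 genes were higher and 2495 lower. These scales move the median of all genes from 0.05 to 0.76 and, with library totals, to 0.62. Changes of sign that go with this shift were Caprin1, at 0.07 on log2(TPM + 1), and list medians of 0.09 for let-7 targets, 0.17 for the IGF axis and 0.78 for message-bound complexes. With library totals the last 2 were 0.09 and 0.17. Measured from the median of all genes, Caprin1, let-7 targets and the IGF axis stayed below 0 on all 3 scales (-0.69, -0.67 and -0.59 on log2(TPM + 1)), and message-bound complexes lay at -0.45 with TMM and library totals and at 0.02 on log2(TPM + 1). With 1 library left out, members higher ranged from 0 to 1, members lower from 5 to 6, and genes higher from 2341 to 2751. Such fits leave 1 stage with a single library, assumed to vary like the other stage.

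Replicate numbers were not shown to pair the libraries: deviations of replicate 1 correlated at 0.0032 between stages over 15982 genes. With a replicate block, 6 members were lower, 1 was higher, and 7138 genes were called.

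ATAC regions held by every library numbered 19 when peaks had to cover 50% of a region (5.25%, beside 4.04% of all) and 28 within 10 kb (12.2%, beside 10.1%). With 1 library left out, ATAC regions of E12.0 alone ranged from 0 to 2, of E13.5 alone from 20 to 40 and of every library from 43 to 56. Shares over all regions then ranged from 0.0735% to 0.43%, from 8.28% to 11.8% and from 10.7% to 14.3%. At −log10 q of 2 or more, H3K27ac regions numbered 1 for E12.0 alone, 2 for E13.5 alone and 0 for every library, of 138 nearby. Those were 0.725%, 1.45% and 0%, beside 0.454%, 0.853% and 1.27% of all regions. The Tead count was 0 of 78, beside 1.16% of all Tead regions. Under 50% cover, H3K27ac regions numbered 3 (E12.0 alone), 0 (E13.5 alone) and 1 (every library), beside 0.795%, 1.04% and 0.116% of all. With 1 library left out, they ranged from 2 to 56 for E12.0 alone, 4 to 72 for E13.5 alone and 3 to 17 for every library. Shares over all H3K27ac regions then ranged from 1.29% to 27.6%, from 2.25% to 36.2% and from 2.33% to 6.21%. Leaving out a Tead library could give no value, since the rule needs both.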
